A study of Arabidopsis thaliana with 10 samples.

Results

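In pollinated pistils of Arabidopsis thaliana, 63 nuclear genes had a high transcript level 0.5 hours after pollination and a lower one again at 3.5 hours. They are called early-peak genes here, and hours after pollination are written HAP. They were chosen by their values: the mean of log2(intensity + 16) was at least 0.7 higher at 0.5 HAP than in unpollinated pistils, and at 3.5 HAP it was at least 0.7 lower than at 0.5 HAP. Of 22745 probe sets tested, 13366 named 1 nuclear gene, and 66 of these met both thresholds. AT3G01830, OPCL1 and AT3G12000 were left out by the rule, which leaves 63 probe sets for 63 different genes. The choice fixes the rise and the fall, so both are described below with no test.

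All groups were wild-type plants of ecotype Columbia, and every flower had been emasculated 24 hours before the time of pollination. There were 5 groups of 2 arrays each. Unpollinated pistils were the starting point, pollinated pistils were taken at 0.5, 3.5 and 8 HAP, and unfertilised ovules were dissected from unpollinated pistils. A replicate was a pool of 20 pistils from at least 10 plants, or of about 1500 ovules from 50 pistils of about 30 plants. Pollinated pistils were measured together with the pollen on them and the tubes inside them, so RNA of the pistil and RNA brought or made by pollen cannot be told apart. Nor can more cells of a type be told apart from more RNA per cell. The labels describe no mock-pollinated group, so contact, pollen and the time that passed after the starting point cannot be told apart either.

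When a dry pollen grain lands on a stigma papilla it takes up water, germinates and sends a tube through the papilla wall, the style and the transmitting tract towards the ovules. In plant tissues, touch, wounding, cold and microbial molecules are known to raise many transcripts within minutes and for a short time. Calcium-binding proteins, transcription factors of the AP2/ERF family, receptor kinases and cell-wall or membrane proteins are common among such early response genes. Pistil tissue is also known to express many genes best studied in defence.

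Intensities are on the linear scale of the deposited table, and medians of the 10 arrays lay between 251.5 and 272.2. Bacterial control probe sets, which should find no target, reached 136.5 at their 95th percentile, and values up to there are called background level. The mean of 19 early-peak genes was at background level in unpollinated pistils, that of 5 at 0.5 HAP, of 16 at 3.5 HAP, of 11 at 8 HAP and of 32 in ovules. Unpollinated replicate 2 stood apart in a control for RNA quality, with a log2 ratio of 3′ over 5′ signal for 1 actin control of 2.96 against 1.93 to 2.55 on the other 9 arrays. With that array left out, 61 of the 63 genes still met the rule. The 2 arrays per group limit the precision of every value. Folds and their logarithms are on the log2(intensity + 16) scale, which understates the change of dim genes. A fold or log2 difference in which a mean lies at background level has no exact size, and its rank among the genes is uncertain. Levels are not compared between probe sets. Array values below are given in pairs, replicate 1 and replicate 2, and those after the start are in the order 0.5, 3.5 and 8 HAP.

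The log2 rise from unpollinated pistils to 0.5 HAP ran from 0.71 to 4.26 over the 63 genes, with a median of 1.12, and the median over all tested probe sets was -0.02. The log2 fall from 0.5 to 3.5 HAP ran from -0.71 to -2.17, with a median of -1.01. By 3.5 HAP the genes had lost a median of 83.9% of their log2 rise, with a range of 28.2% to 157.3%. At 3.5 HAP 27 genes lay within 0.25 of the unpollinated level on the log2 scale, 42 lay within 0.5, and 5 were still at least 1 above it. In all 63 genes both arrays at 0.5 HAP were above every array of the unpollinated and 3.5 HAP groups. This separation held for 17.1% of all tested probe sets, and nothing is read from it for genes chosen this way. A stricter view, in which every 0.5 HAP array cleared every array of the other group by the threshold of 0.7, was met by 43 genes against unpollinated pistils, by 46 against 3.5 HAP and by 33 against both.

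**Figure D1:**
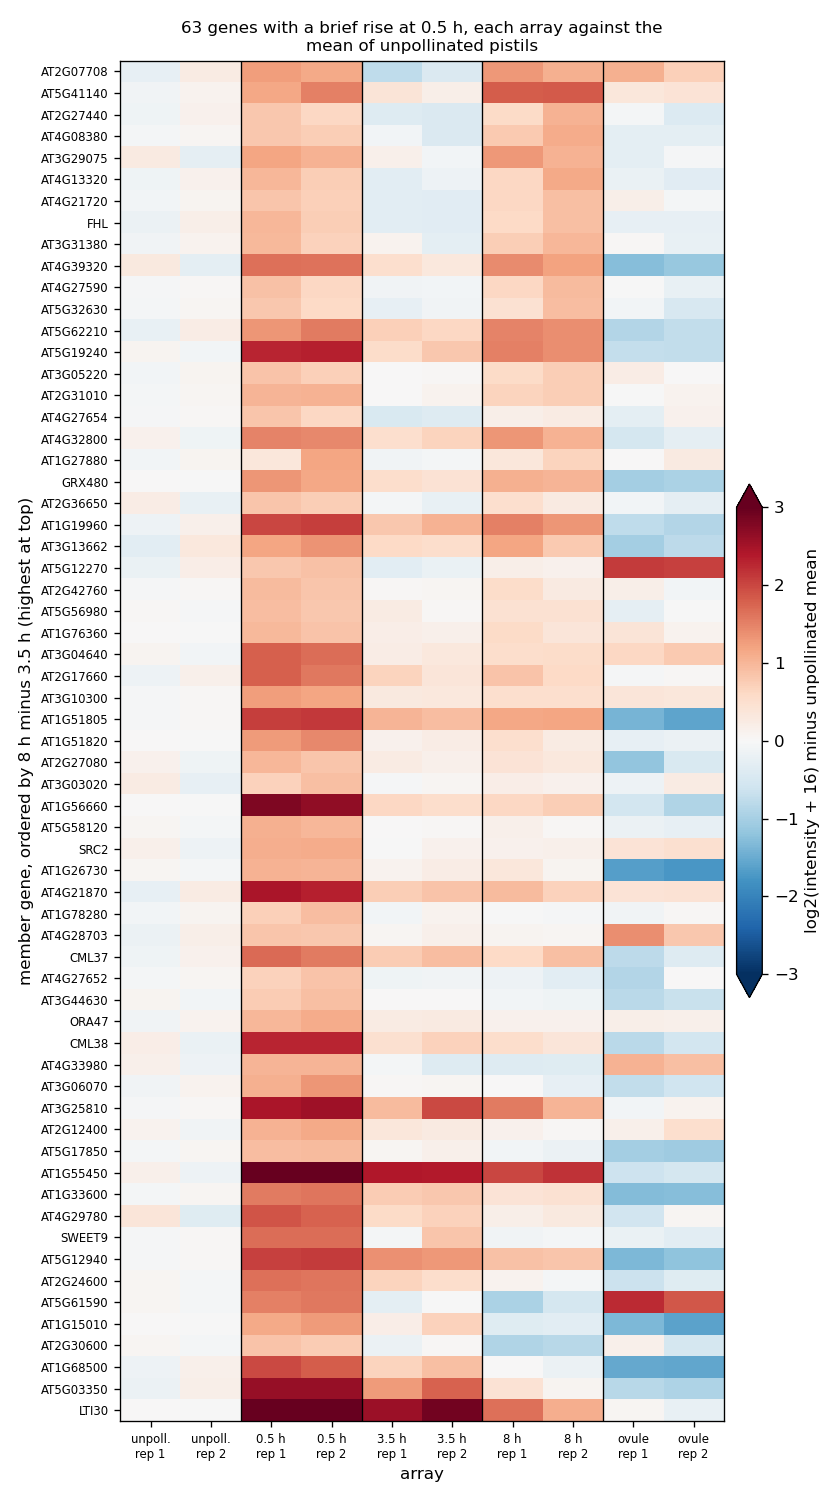
Heat map of log2(intensity + 16) minus the unpollinated mean for the 63 early-peak genes (rows) on the 10 arrays (columns, 2 per group), ordered by the difference between 8 and 3.5 HAP. Both 0.5 HAP columns are red in every row, by the choice of the genes, while the 8 HAP columns are red at the top of the map and pale or blue at the bottom, and the ovule columns are mixed.

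Among calcium-binding proteins, CML37 and CML38 are calmodulin-like proteins, known in leaves for induction by wounding and touch. CML38 read 123 and 90.0 before pollination, then 571 and 573, 152 and 181, and 160.3 and 141, with 52.9 and 66.3 in ovules. Its 0.5 HAP arrays stood 4.85-fold above unpollinated pistils, and the level at 3.5 HAP was 3.23-fold below that peak, though all arrays at 3.5 HAP were still above those before pollination. The unpollinated mean of 106 ± 23.3 (SD, n = 2) was at background level, so the first fold has no exact size. CML37 read 33.9 and 43.4 at the start, then 161 and 144, 76.8 and 86.7, and 65.9 and 85.1, and 15.5 and 25.8 in ovules. Only its 0.5 HAP arrays were above background level, so its 3.1-fold difference has no exact size. The EF-hand protein AT3G10300 read 475 and 450.0 at 0.5 HAP, and on the other 8 arrays it stayed between 185 and 278. Between 3.5 and 8 HAP the adjusted p of these 3 genes lay between 0.071 and 0.644, so no further change was detected.

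Of the 3 AP2/ERF transcription factors, AT5G61590 is known as DEWAX, a repressor of wax synthesis genes. It read 614 and 560.5 before pollination, then 1696 and 1778, 479 and 585, and 298 and 399.7, with 2821 and 2174 in ovules. The 0.5 HAP peak was 2.91-fold over unpollinated pistils, 1 of the 3.5 HAP arrays lay between the unpollinated ones, the 8 HAP arrays lay below all other groups, and the ovule arrays lay above all pistil arrays. AT4G32800 read 252 and 206 at the start, then 668 and 649.9, 329 and 369.7, and 590.0 and 491, and 154 and 188 in ovules. It kept part of its rise at 3.5 HAP and was higher again at 8 HAP. ORA47, which in seedlings activates jasmonate synthesis genes, was at background level throughout, with 124 and 135 at 0.5 HAP and between 48.4 and 68.3 on the other arrays.

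Kinases, leucine-rich repeat proteins and NBS proteins made up 8 of the genes. AT1G51805, a leucine-rich repeat receptor-like kinase, read 196 and 207 before pollination, then 907 and 924, 423 and 396, and 471 and 477, with 66.5 and 56.4 in ovules. No groups overlapped, and the order from low to high was ovules, unpollinated pistils, 3.5 HAP, 8 HAP and 0.5 HAP. AT5G12940, a leucine-rich repeat protein, read 477 and 495 before pollination, then 2056 and 2121, 1281 and 1213, and 904 and 871, with 181 and 202 in ovules. Its level fell at each step after 0.5 HAP and was still 1.8-fold above the unpollinated mean at 8 HAP (adjusted p = 1.82e-05). The other leucine-rich repeat protein, AT1G33600, read 671 and 699.5 at 0.5 HAP and 380.1 and 397 at 3.5 HAP, from 209 and 228 before pollination. AT1G51820, a receptor-like kinase whose gene lies 3 genes from AT1G51805 on chromosome 1, was above background level only at 0.5 HAP, at 143 and 163. The kinases AT2G31010 and AT1G76360 differed by log2 1.03 and 0.92 from unpollinated pistils at 0.5 HAP. A second probe set for AT2G31010 did not have this pattern, with log2 differences of -0.05 for the rise and -0.01 for the fall, so the transcript that rose is not settled for this gene. The TIR-NBS-LRR proteins AT5G58120 and AT3G44630, a class that includes many resistance proteins, differed by 1.03 and 0.83 and were back within 0.25 of the starting level at 3.5 HAP.

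Surface, membrane and redox proteins made up 7 genes. AT5G19240, a predicted GPI-anchored glycoprotein, read 204 and 182 before pollination, then 1005 and 1032, 289.8 and 347, and 581 and 529.9, with 111 and 108 in ovules. The 0.5 HAP arrays were 4.96-fold above unpollinated pistils, and the 8 HAP arrays lay between the 0.5 and 3.5 HAP arrays. AT5G03350, a legume-lectin-like protein, read 124 and 160.5 before pollination, then 949.9 and 952, 365 and 523, and 196 and 149.5, with 72.0 and 66.3 in ovules. It fell stepwise, and at 8 HAP 1 of its arrays lay between the 2 unpollinated ones. GRX480, a glutaredoxin that binds TGA transcription factors in salicylate signalling, read 239.8 and 239 at the start, then 627 and 554, 350.3 and 329, and 517 and 500.5, and 109.5 and 116 in ovules. Its rise was only partly lost at 3.5 HAP, and no groups overlapped. The glycine-rich protein AT3G04640 read 1094 and 1005 at 0.5 HAP and lost 84.2% of its log2 rise by 3.5 HAP. The ankyrin-repeat protein AT2G24600, the RIN4-family protein AT2G17660 and the NDR1/HIN1-like protein AT2G27080 were higher at 0.5 HAP by log2 1.62, 1.69 and 0.92. AT2G17660 was at background level on all 10 arrays, with 68.7 and 57.6 as its highest values.

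Cold, dehydration and chaperone proteins included the gene with the largest rise. LTI30, a dehydrin known from cold and drought responses, read 43.8 and 43.0 before pollination, then 1100 and 1151, 334 and 425, and 169 and 111, with 46.2 and 35.02 in ovules. Its 0.5 HAP mean of 1125 ± 36.3 (SD, n = 2) was 19.2-fold above the unpollinated mean of 43.4 ± 0.601 (SD, n = 2), which lay at background level, so the fold has no exact size. Both its 3.5 HAP arrays were above both 8 HAP arrays, and ovules did not rise above background level. AT4G21870, an HSP20-like chaperone, read 117 and 169 before pollination, then 838 and 773, 245 and 267, and 287 and 239, with 191 and 195 in ovules. At 0.5 HAP it was 5.23-fold above unpollinated pistils, and 3.5 and 8 HAP overlapped. SRC2, a C2-domain protein known from cold-treated plants, read 1552 and 1259 before pollination, then 2998 and 3039, 1389 and 1533, and 1521 and 1546, with 1850 and 1972 in ovules. Unpollinated, 3.5 HAP and 8 HAP arrays overlapped, and 0.5 HAP stood 2.15-fold above the start. The cold-regulated gene AT4G33980 read 478 and 384 before pollination, then 889 and 880.0, 409 and 324, and 324 and 328, with 893 and 809.8 in ovules. Its 0.5 HAP arrays overlapped those of ovules and were above all other pistil arrays.

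The 3 transport genes were within 0.5 of their starting level at 3.5 HAP on the log2 scale. SWEET9, a sucrose transporter known for its role in nectaries, read 96.2 and 102 before pollination, then 349 and 352, 94.2 and 188, and 91.5 and 93.8, with 84.4 and 75.9 in ovules. Its 2 arrays at 3.5 HAP disagreed, with 1 at the unpollinated level and 1 well above it, so the level at that time is uncertain. The cation/calcium exchanger AT5G17850 read 1395 and 1402 at 0.5 HAP and between 634 and 798 on the other pistil arrays. AT1G26730, an EXS-domain protein of the PHO1 family, read 503 and 462 before pollination, then 1006 and 987, 517 and 569.6, and 617 and 509, with 142 and 133 in ovules. Its 3.5 and 8 HAP arrays overlapped each other and lay above both unpollinated arrays, while ovules lay far below.

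Among the enzymes, AT1G55450, a predicted methyltransferase, read 158 and 123 before pollination, then 1521 and 1587, 811 and 793, and 606 and 687, with 85.0 and 92.1 in ovules. It kept most of its rise: only 28.2% of the log2 rise was lost by 3.5 HAP, the smallest share among the 63 genes. AT3G25810, a terpene synthase, read 50.7 and 53.5 before pollination, then 355 and 383, 116 and 252, and 183 and 122, with 48.7 and 57.0 in ovules. Its arrays at 3.5 HAP differed by log2 1.02, the widest replicate gap of any early-peak gene at that time, and 1 of them was at background level. The 2-oxoglutarate-dependent oxygenase AT5G12270 went from 592 and 793 to 1219 and 1283 and read 551 and 593 at 3.5 HAP. The helicase-like gene AT1G27880 had the widest replicate gap at 0.5 HAP, with arrays at 188 and 346 against 135 and 155 before pollination, so its rise of log2 0.76 rests largely on 1 array.

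**Figure D2:**
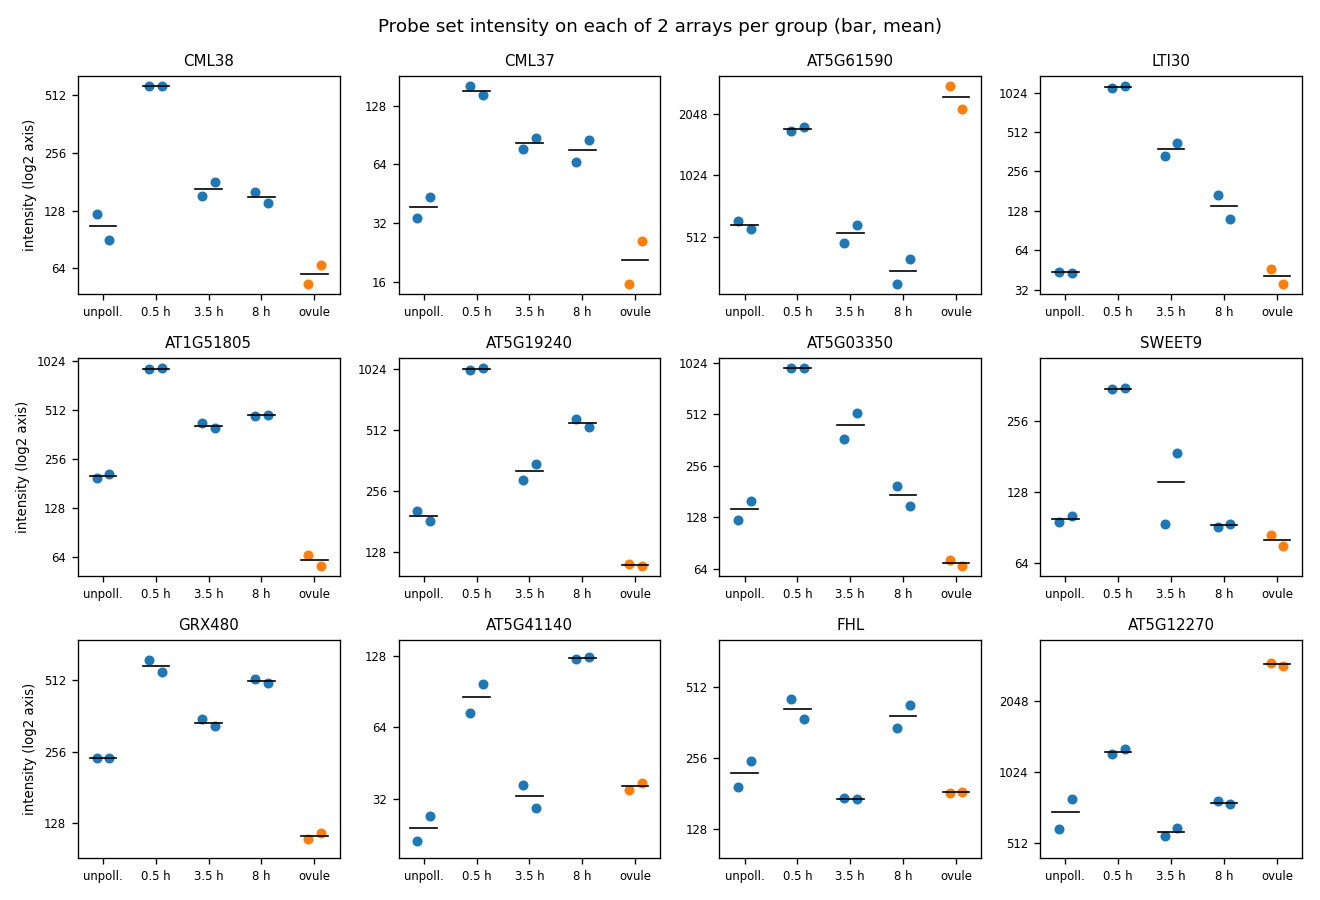
Intensity of 12 early-peak genes on each of the 2 arrays per group (points, log2 axis; bars are group means; ovules in orange). CML38, LTI30, AT5G03350 and SWEET9 fall after 0.5 HAP, GRX480, AT5G41140 and FHL are high again at 8 HAP, and AT5G61590 and AT5G12270 are highest in ovules.

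The remaining 31 genes were given no role group. AT1G56660 had the largest fall, log2 -2.17, and read 59.1 and 58.5 before pollination, then 509 and 457, 98.6 and 91.2, and 99.0 and 109.6, with 35.4 and 23.9 in ovules. It was above background level only at 0.5 HAP. AT1G19960 read 73.7 and 96.0 at the start, then 387 and 405, 160.1 and 191, and 269 and 235, and 43.1 and 38.1 in ovules. Its groups did not overlap, and ovules were lowest. AT1G68500 read 346 and 434 at the start, then 1583 and 1414, 629.6 and 734, and 394 and 341, and 123 and 120.3 in ovules. Its unpollinated and 8 HAP arrays overlapped, and its 3.5 HAP arrays lay above both. The nuclease-like AT4G29780 had the widest replicate gap in unpollinated pistils, 506 and 300.0, and read 1492 and 1371 at 0.5 HAP. AT3G05220, a heavy-metal-associated domain protein, read 1538 and 1704 before pollination, then 2947 and 2662, 1619 and 1656, and 2418 and 2731, with 1895 and 1635 in ovules. At 8 HAP 1 of its arrays lay within the range of the 0.5 HAP arrays.

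Log2 rises between 1.0 and 1.7 were also seen for AT4G39320 (1.65), AT5G62210 (1.45), AT5G41140 (1.34), the dirigent-like AT3G13662 (1.27), AT1G15010 (1.203), AT3G06070 (1.198), AT2G07708 (1.196), the glycine-rich AT3G29075 (1.12) and AT2G12400 (1.09). The rises of the others were between 0.71 and 0.89. They were AT2G42760, AT5G56980, AT4G13320, FHL, AT3G31380, AT1G78280, AT4G28703, AT2G30600, AT3G03020, AT2G36650, AT4G27652, AT4G21720, AT4G08380, AT4G27590, AT4G27654, AT2G27440 and AT5G32630. FHL acts in nuclear import of phytochrome A, AT4G28703 encodes a cupin-like protein and AT2G30600 a BTB/POZ-domain protein. AT3G31380, AT2G27440 and AT5G32630 are annotated as pseudogenes, and the other 60 early-peak genes as protein coding. AT2G07708 lies in a copy of mitochondrial DNA on chromosome 2, so its signal cannot be told apart from the mitochondrial transcript. AT4G27652 and AT4G27654 are direct neighbours on chromosome 4, and AT4G27590 lies 10 genes from AT4G27652. A second probe set for AT2G30600 missed the rule, with log2 differences of 0.47 and -0.39.

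The first comparison beyond the rule asked what followed between 3.5 and 8 HAP. It shares the 3.5 HAP arrays with the rule, which took low values there, so upward differences are favoured by the choice. Of the 63 genes 24 were higher and 9 lower at 8 HAP (limma, Benjamini-Hochberg adjusted p under 0.05), and 30 did not pass. Among all tested probe sets 18.9% were higher and 12.4% lower. The median log2 difference was 0.20 over the 63 genes and 0.05 over all tested probe sets. The 24 that were higher included all 3 pseudogenes and 19 of the 31 genes with no role group. Of the 24, 21 were also higher at 8 HAP than in unpollinated pistils, as were 19.7% of all tested probe sets. Both the call at 8 HAP and the low unpollinated values taken by the rule favour this, so nothing is read from it. In 7 genes the 8 HAP mean was at or above the 0.5 HAP mean. Of the 24, 8 also shared differences between replicate arrays: FHL, AT4G27590, AT4G21720, AT4G13320, AT4G08380, AT5G32630, AT3G31380 and AT2G27440. Whether each of these probe sets measures only the gene it names was not tested, so their values are those of the probe sets.

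The 4 largest fitted second rises were those of AT2G07708, AT5G41140, AT2G27440 and AT4G08380. AT2G07708 read 456 and 659 before pollination, then 1327 and 1230, 316 and 401, and 1370 and 1169, with 1174 and 917 in ovules. The rise to 8 HAP was 3.45-fold (log2 difference 1.78 ± 0.18 (SE, n = 2), adjusted p = 6.81e-05), and its 0.5 and 8 HAP arrays overlapped. AT5G41140 read 21.1 and 27.1 before pollination, then 73.7 and 98.2, 36.6 and 29.1, and 124 and 127, with 34.7 and 37.4 in ovules. All of its arrays were within background level, and both 8 HAP arrays were above the 0.5 HAP arrays (log2 difference 1.54 ± 0.13 (SE, n = 2), adjusted p = 2.77e-05). AT2G27440 read 182 and 219.6 before pollination, then 363 and 317, 149.6 and 145, and 307 and 431, with 190.0 and 145 in ovules. Its 8 HAP arrays lay on both sides of the 0.5 HAP arrays (log2 difference 1.22 ± 0.16 (SE, n = 2), adjusted p = 0.000356). AT4G08380 read 219 and 241 before pollination, then 413 and 392, 217 and 166, and 408 and 515, with 184 and 185 in ovules. Here too 8 HAP was level with 0.5 HAP while both 3.5 HAP arrays were below the start (log2 difference 1.204 ± 0.13 (SE, n = 2), adjusted p = 0.000123).

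The other genes higher at 8 than at 3.5 HAP were AT3G29075, AT4G13320, AT4G21720, FHL, AT3G31380, AT4G39320, AT4G27590, AT5G32630, AT5G62210, AT5G19240, AT3G05220, AT2G31010, AT4G27654, AT4G32800, GRX480, AT2G36650, AT1G19960, AT5G12270, AT2G42760 and AT5G56980. Their log2 differences ran from 0.31 to 1.12. AT2G36650 was at background level on all arrays, with 56.1 as its highest value. The means of AT3G31380 were at background level in all groups except 8 HAP, where the mean was 138. FHL was 2.12-fold higher (adjusted p = 0.00026) and GRX480 1.48-fold (adjusted p = 0.000925). The calls of the 6 genes AT1G19960, AT4G32800, AT2G36650, AT5G12270, AT2G42760 and AT5G56980 were lost when 1 array was left out. Their highest adjusted p among the alternatives was 0.105, 0.056, 0.15, 0.139, 0.273 and 0.295 in that order. Without 8 HAP replicate 1 none of these 6 passed.

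The 9 genes that fell further were LTI30, AT5G03350, AT1G68500, AT2G30600, AT1G15010, AT5G61590, AT2G24600, AT5G12940 and AT1G33600. LTI30 fell 2.56-fold (log2 difference -1.36 ± 0.17 (SE, n = 2), adjusted p = 0.000239) and AT5G03350 2.42-fold (log2 difference -1.28 ± 0.17 (SE, n = 2), adjusted p = 0.000347). AT1G68500, whose 8 HAP arrays at 394 and 341 overlapped the unpollinated ones, fell 1.82-fold (log2 difference -0.86 ± 0.12 (SE, n = 2), adjusted p = 0.000592). AT2G30600 read 817 and 748 before pollination, then 1420 and 1332, 688 and 806, and 410.2 and 436, with 876 and 539 in ovules. Its 8 HAP arrays were below every other array (log2 difference -0.79 ± 0.17 (SE, n = 2), adjusted p = 0.00593), and without 3.5 HAP replicate 2 the adjusted p was 0.0584. AT5G61590 and AT1G33600 also lost their calls without 3.5 HAP replicate 2, with adjusted p = 0.121 and 0.059, or without 8 HAP replicate 1, with 0.134 and 0.053. The median log2 rise at 0.5 HAP was 1.62 in these 9 genes and 0.87 in the 24 that were higher again, and this difference was not tested because the rule used it.

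**Figure D3:**
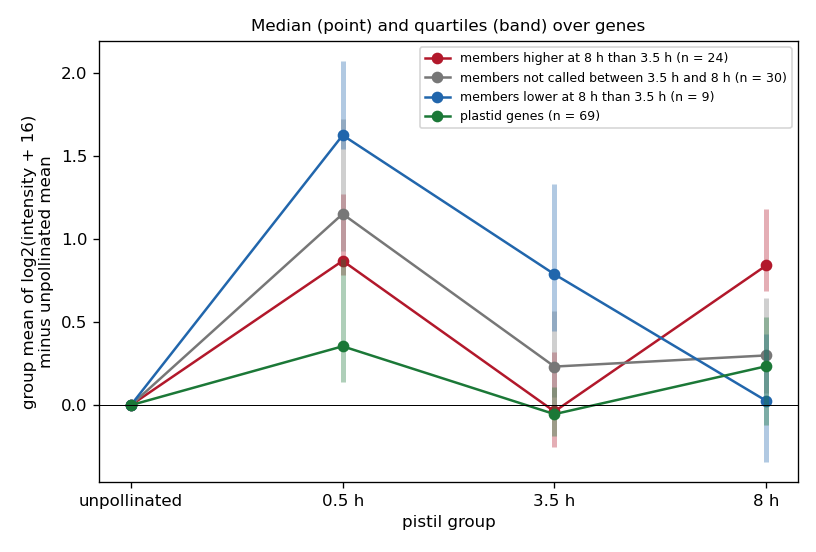
Median over genes (points) and quartiles (bands) of the group mean of log2(intensity + 16) minus the unpollinated mean, for early-peak genes split by the test between 3.5 and 8 HAP and for 69 plastid genes. The 24 genes in red go from a median of 0.87 at 0.5 HAP to -0.04 at 3.5 HAP and 0.84 at 8 HAP, and the 9 in blue from 1.62 to 0.79 and 0.03; groups are evenly spaced and the split itself fixes the last step.

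Against unpollinated pistils 37 of the 63 genes were higher at 8 HAP and 3 were lower, with 19.7% and 18.8% among all tested probe sets. The rule took low values in unpollinated pistils, which favours higher calls here. The median log2 difference was 0.50, against -0.01 over all tested probe sets. AT1G55450 was 4.25-fold above its start (log2 difference 2.09 ± 0.11 (SE, n = 2), adjusted p = 1.30e-07), and AT5G19240 was 2.74-fold above it. AT5G41140 had a log2 difference of 1.83, with all arrays within background level, so it has no exact size or rank. The 3 that were lower were AT2G30600 (log2 difference -0.86 ± 0.17 (SE, n = 2), adjusted p = 0.00247), AT5G61590 (log2 difference -0.74 ± 0.15 (SE, n = 2), adjusted p = 0.00301) and AT4G33980 (log2 difference -0.38 ± 0.12 (SE, n = 2), adjusted p = 0.0323). The call of AT4G33980 was lost without unpollinated replicate 1 (adjusted p = 0.184) and without either 8 HAP array (0.124 and 0.117). CML38 passed as higher with adjusted p = 0.0229 but not without unpollinated replicate 2 (0.166) or 8 HAP replicate 1 (0.149). The higher calls of AT1G51820, AT1G76360, AT2G42760 and AT5G32630 were also lost on leaving out 1 array, with an adjusted p of up to 0.15, 0.0583, 0.166 and 0.0691.

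Ovules were compared with whole unpollinated pistils, which contain them. Of the 63 genes 11 were higher in ovules and 23 lower, against 29.6% and 22.0% of all tested probe sets. This comparison shares the unpollinated arrays with the rule, which favours higher calls. The median log2 difference was -0.21, and 0.04 over all tested probe sets. AT5G12270 read 592 and 793 before pollination, then 1219 and 1283, 551 and 593, and 772 and 748, with 2987 and 2894 in ovules. Ovules stood apart, and no pistil array at any time was above 1283 (log2 difference 2.08 ± 0.12 (SE, n = 2), adjusted p = 6.57e-08). AT5G61590 was 4.14-fold higher in ovules (log2 difference 2.05 ± 0.15 (SE, n = 2), adjusted p = 6.38e-07). The cupin AT4G28703 read 162 and 209.5 before pollination, then 342 and 334, 193 and 208, and 195 and 194, with 512 and 338 in ovules. Its ovule arrays differed widely, and the lower of them lay within the range of the 0.5 HAP arrays (log2 difference 1.11 ± 0.16 (SE, n = 2), adjusted p = 0.000145). AT4G33980 was 1.95-fold higher (log2 difference 0.96 ± 0.12 (SE, n = 2), adjusted p = 5.39e-05).

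The 4 largest fitted differences in the other direction were those of AT1G26730, AT1G68500, AT1G51805 and AT1G15010. AT1G26730 was 3.24-fold lower in ovules (log2 difference -1.70 ± 0.10 (SE, n = 2), adjusted p = 1.27e-07) and AT1G68500 2.93-fold (log2 difference -1.55 ± 0.12 (SE, n = 2), adjusted p = 1.11e-06). AT1G51805 was 2.82-fold lower (log2 difference -1.49 ± 0.09 (SE, n = 2), adjusted p = 9.87e-08). AT1G15010 read 372 and 367 before pollination, then 832 and 911, 426 and 606, and 283 and 293, with 136 and 111 in ovules. It was 2.77-fold lower in ovules (log2 difference -1.47 ± 0.14 (SE, n = 2), adjusted p = 5.67e-06), and its 8 HAP arrays lay below the unpollinated ones. The ovule means of AT1G68500, AT1G51805 and AT1G15010 were at background level and that of AT1G26730 was 138 ± 6.67 (SD, n = 2), just above it, so these differences have no exact size and their order is uncertain. Calls in ovules that were lost on leaving out 1 array were those of AT4G21870, AT5G41140 and AT2G12400 among the higher and CML37 and AT4G32800 among the lower genes, with an adjusted p of up to 0.232, 0.15, 0.343, 0.07 and 0.173.

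The pair of groups that the rule did not use at all is 8 HAP and ovules. These 2 groups differ in tissue, in pollination and in time, which cannot be told apart here. Here 44 of the 63 genes were higher in pistils at 8 HAP and 6 higher in ovules. Among all tested probe sets 25.9% were higher at 8 HAP and 31.9% in ovules. The median log2 difference was 0.72, against -0.05 over all tested probe sets. The largest fitted differences towards the pistil were those of AT1G51805 (log2 difference 2.66 ± 0.09 (SE, n = 2), adjusted p = 7.98e-10) and AT1G55450 (log2 difference 2.66 ± 0.11 (SE, n = 2), adjusted p = 4.20e-09). Both genes were at background level in ovules, with means of 61.5 ± 7.2 (SD, n = 2) and 88.5 ± 5.04 (SD, n = 2), so neither size nor rank is exact. The 6 genes higher in ovules were AT5G61590, AT5G12270, AT4G33980, AT4G28703, AT2G30600 and SRC2. SRC2 had the smallest of these differences (log2 difference -0.31 ± 0.10 (SE, n = 2), adjusted p = 0.0184), and its call was lost without either 8 HAP array or without ovule replicate 2, with an adjusted p of at most 0.0855. Towards the pistil the calls of AT4G21870, AT5G58120, AT2G42760 and AT2G36650 were lost without 1 of the arrays compared, with an adjusted p of up to 0.192, 0.0815, 0.204 and 0.0684.

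**Figure D4:**
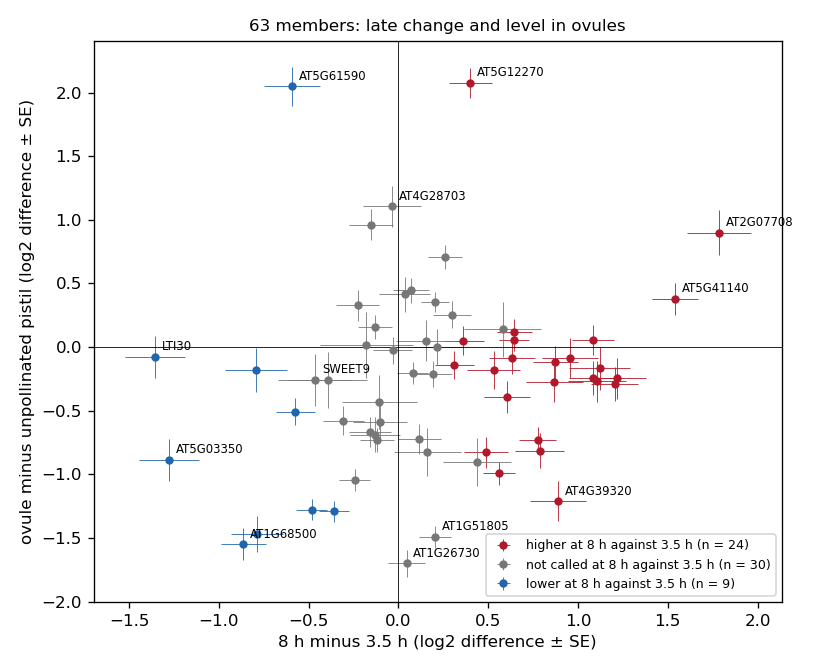
Each point is 1 of the 63 early-peak genes, with the log2 difference between 8 and 3.5 HAP on the x axis and between ovules and unpollinated pistils on the y axis (bars are SE from the fit, 2 arrays per group), coloured by the call between 3.5 and 8 HAP. AT5G12270 and AT5G61590 stand above 2 on the y axis with opposite signs on the x axis, and AT2G07708 and AT5G41140 are furthest to the right.

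The early-peak genes were set beside 381 nuclear probe sets that met the first threshold and not the second, and beside 69 plastid genes. No difference between these sets was tested. The 381 probe sets had a median log2 rise of 0.98 at 0.5 HAP, against 1.12 for the early-peak genes, and stood 0.97 above unpollinated pistils at 3.5 HAP and 0.95 at 8 HAP. At 8 HAP 299 of them were higher than in ovules and 38 lower, with a median log2 difference of 1.19 against 0.72 for the early-peak genes. Between 3.5 and 8 HAP 101 of them were higher and 98 lower. In ovules against unpollinated pistils 93 were higher and 136 lower, with a median of -0.11. The plastid genes had a smaller pattern of the same form, with medians of 0.35 for the rise, -0.39 from 0.5 to 3.5 HAP and 0.26 from 3.5 to 8 HAP. Of the 69 plastid genes 27 were higher and 3 lower at 8 than at 3.5 HAP and 51 were lower in ovules than in unpollinated pistils. At 8 HAP 57 plastid genes were higher than in ovules, with a median log2 difference of 0.89. Their part in the second rise of the 24 early-peak genes was not tested.

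Lists of genes for known responses were only partly measured, because many probe sets carry no single gene name. The list for abscisic acid and water stress had 4 measured genes, of which LTI30 is an early-peak gene and is not counted in its rise and fall. The other 3 were all higher at 0.5 HAP, and all 4 fell from 3.5 to 8 HAP. At 0.5 HAP 15.5% of all tested probe sets were higher and 14.7% lower than in unpollinated pistils. Of these 3, only the dehydrin COR47 passed the test for a fall from 0.5 to 3.5 HAP (log2 difference -0.69, adjusted p = 0.00206). COR15A and COR15B, which protect chloroplasts in the cold, had log2 differences of -0.13 (adjusted p = 0.528) and -0.37 (0.0679) for that step, after rises of 2.11 and 1.31. Over all tested probe sets 5.19% were higher and 9.0% lower at 3.5 than at 0.5 HAP.

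Of the 6 measured genes for touch, wounding and microbial patterns, CML38 is an early-peak gene, and of the other 5, 2 were called higher and 1 lower at 0.5 HAP. From 0.5 to 3.5 HAP WRKY53 and WRKY6, factors of defence and senescence, rose by log2 0.72 (adjusted p = 0.000783) and 0.40 (0.0132). The 2 measured jasmonate genes were OPCL1, which activates jasmonate precursors, and the methyltransferase JMT. OPCL1 met both thresholds and was left out by the rule. Its rise and its fall (log2 difference -1.30) are therefore described with no test. JMT was higher at 0.5 HAP and did not pass for a fall from 0.5 to 3.5 HAP (log2 difference -0.31, adjusted p = 0.237). Of 2 measured auxin genes GH3.3, which conjugates auxin, rose by log2 3.22 from 0.5 to 3.5 HAP (adjusted p = 2.11e-06). Its 0.5 HAP mean of 67.1 was at background level, so this rise has no exact size. The other auxin gene, IAA29, was at background level in all groups and did not pass at any step. Both heat shock genes, ATHSP22.0 and AT5G48570, were lower at 0.5 HAP. The single ethylene gene did not pass at any step, the single salicylate gene was higher at 0.5 HAP, and the single clock gene was lower at 8 than at 3.5 HAP.

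Markers of other cell types moved as well. The summed intensity of 10 measured pollen and pollen tube markers was 2342 to 2504 in unpollinated pistils, 8461 to 8650 at 0.5 HAP, 12770 to 13530 at 3.5 HAP, 15210 to 15250 at 8 HAP and 1888 to 1895 in ovules. Most of the higher sum at 0.5 HAP came from AT5G45880, AT3G07820 and AT3G01270. Their means went from 503, 115 and 151 in unpollinated pistils to 4027, 1400 and 1335. Of the 10 markers 6 were at background level in unpollinated pistils, 4 at 0.5 HAP, 3 at 3.5 HAP, 2 at 8 HAP and 7 in ovules. At 0.5 HAP 8 of the 10 were called higher and 1 lower, and 5 rose from 0.5 to 3.5 HAP. Those with the smallest adjusted p were ANX2 (log2 difference 1.09, adjusted p = 0.000262), AT3G01270 (1.04, 0.000864), ANX1 (0.56, 0.00234) and AT4G39110 (0.55, 0.00822), known for pollen tube kinases and a pectate lyase. ANX1 was at background level at both times, with means of 73.2 and 116. AT4G39110 was there at 0.5 HAP, with a mean of 100.2, so neither of these rises has an exact size. The 6 measured markers of stigma, style and transmitting tract summed to 4048 to 4469 before pollination, 8000 to 8042 at 0.5 HAP, 7217 to 8289 at 3.5 HAP, 3593 to 3835 at 8 HAP and 4054 to 4152 in ovules. Most of the higher sum at 0.5 HAP came from ARPN, a plantacyanin of the transmitting tract, whose mean went from 1247 ± 281 to 4977 ± 37.1 (SD, n = 2; log2 difference 2.001, adjusted p = 9.64e-07). SPT, a factor of carpel development, fell from 550.3 to 303 (-0.83, adjusted p = 4.18e-05), and CES, with means of 1943 and 1832, did not pass (-0.08, 0.587). Apart from AT3G12000, the markers ARPN and NGA1 (log2 difference 0.33, adjusted p = 0.0223) were called higher at 0.5 HAP and SPT lower. AT3G12000, an S-locus-related gene, met both thresholds and was left out by the rule. Its rise and fall (log2 differences of 1.54 and -1.67) are therefore described with no test. None of the tested markers of this list passed for a fall from 0.5 to 3.5 HAP. The single anther marker, AT5G07230, was at background level in all groups. It was called higher at 0.5 HAP (log2 difference 0.41, adjusted p = 0.0173), lower at 3.5 than at 0.5 HAP (-0.44, 0.0221) and higher at 8 than at 3.5 HAP (0.35, 0.0346). The 2 integument markers summed to 827 to 967 before pollination and 4235 to 4845 in ovules. The 5 embryo sac markers summed to 1347 to 1426 and 2572 to 2710, and the single sperm cell marker was at background level everywhere. The part of these cell types in the early-peak pattern was not tested.

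The thresholds divide a continuous range. Just inside the rise threshold were AT5G32630, AT2G27440 and AT4G27654 with 0.71, 0.72 and 0.73, and just outside AT1G67870, AT4G09400 and AT4G03840 with 0.68, 0.67 and 0.66. Just inside the fall threshold were AT3G13662, AT4G28703 and AT2G27080 with -0.71, -0.71 and -0.72, and just outside PUB23, AT5G65300 and AT1G72070 with -0.70, -0.69 and -0.69. Another 20 plastid genes, 1 gene with no entry in the gene table and 72 probe sets with no single gene name also met both thresholds. The 4 genes left out by the rule had the following means, in order for unpollinated pistils, 0.5, 3.5 and 8 HAP and ovules. They were 31.8, 282, 50.5, 86.5 and 5.87 for AT3G01830, a calmodulin-like gene, 543, 1357, 537, 759 and 288 for OPCL1, 150.2, 446, 130.0, 18.8 and 22.6 for AT3G12000, and 593, 831, 192, 157 and 61.8 for AT5G19880, a peroxidase that missed the first threshold with 0.52.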

How the data were processed

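The data were 10 one-colour Affymetrix arrays, 2 per group, hybridised with biotin-labelled cRNA per the labels, after amplification. A table of linear intensity for 22810 probe sets was deposited by the authors. MAS5 appears in the submitters' processing notes without a version or its purpose. Close array medians point to a common scaling, whose method is not given in the sources used here, and values were used as deposited.

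Probe sets were named through the platform annotation and a gene table (TAIR10.1, used for names, genome and gene order only). The 64 control probe sets and 1 with no value were left out. limma 3.58.1 in R 4.3.3 (lmFit, contrasts.fit, eBayes with trend) was fitted to log2(value + 16) over the 5 groups together (5 residual, 6.106 prior degrees of freedom), and p-values were Benjamini-Hochberg adjusted over 22745 probe sets. Each SE beside a log2 difference comes from this fit, which pools the spread of a probe set over the 5 groups. It is therefore not the spread of the arrays compared, and n gives the arrays per group. Replicates were separate pools, per the labels, and had unequal spread. Between replicates, log2 differences had an SD of 0.23 in unpollinated pistils, 0.20 in ovules and 0.13 to 0.15 in the other groups. For comparisons with unpollinated pistils or with ovules, p-values may therefore be too small. The background level is the 95th percentile of 27 bacterial control probe sets. Of 14 gene lists, each gene was taken through its brightest probe set.

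The genes and lists were chosen with earlier results of these data known. All 63 genes are named; values on every array are given for the 12 largest rises, the 6 highest means at 0.5 HAP and the 4 largest called differences each way in 8 against 3.5 HAP and in ovules against unpollinated pistils, and for AT4G32800, CML37, GRX480 and SWEET9, chosen after their values were seen. Role groups were also made after the genes were known. Alternatives were pseudocounts of 1 and 64, quantile normalization, no trend, no dim probe sets, a fit of only the groups compared, a replicate block, and leaving out each array. Tables were made with Python 3.11.15 and pandas 2.3.3, figures with matplotlib 3.10.9.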

Additional observations from a re-analysis of the deposited data

How the results depend on the processing

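The number of genes meeting the rule was 63 and became 39 without the dimmest 40% of probe sets, 86 with a pseudocount of 1, 42 with 64 and 59 after quantile normalization. Leaving out 1 array gave 59 to 86, not always with the same genes. Of the 63 genes, 52 still met the rule without 0.5 HAP replicate 1, 55 without unpollinated replicate 1 and 57 without 0.5 HAP replicate 2. With the 39 genes left by the filter on dim probe sets, 22 were higher at 8 HAP than in unpollinated pistils (37 of 63 with all probe sets) and 26 higher than in ovules (44 of 63). With the 44 genes above background level in unpollinated pistils and at 0.5 HAP, chosen after seeing the data, 29 were higher at 8 HAP than in ovules. These counts are over fewer genes. Leaving out 1 array gave 18 to 28 genes higher and 6 to 11 lower at 8 than at 3.5 HAP, 33 to 39 and 2 to 4 at 8 HAP against unpollinated pistils, 9 to 11 and 23 to 27 in ovules against unpollinated pistils, and 40 to 45 and 5 to 7 at 8 HAP against ovules. No called gene changed sign in any alternative run that held it. Of the calls, 24 of 33, 34 of 40, 29 of 34 and 45 of 50 passed in every run that held the gene. The run without dim probe sets held only 39 of the 63 genes, so calls of the genes it removed were not tried there. Same-numbered arrays did not deviate together in the same direction (correlations of -0.32 to 0.11). The lowest correlation was between unpollinated pistils and ovules. This check cannot show whether arrays of unlike number shared a batch. With a replicate block 25 genes were higher and 9 lower at 8 than at 3.5 HAP, 39 and 3 at 8 HAP against unpollinated pistils, 11 and 23 in ovules against unpollinated pistils, and 44 and 6 at 8 HAP against ovules. Promoter motifs were planned and not run, as no sequences were used here.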

Other observations

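A set of 9 early-peak genes shared differences between replicates as well as between groups. In CML37, FHL, AT4G27590, AT4G21720, AT4G13320, AT4G08380 and the pseudogenes AT5G32630, AT3G31380 and AT2G27440, 8 HAP replicate 2 was at least 0.25 above replicate 1 on the log2 scale, and 0.5 HAP replicate 1 was at least 0.05 above replicate 2. These limits were chosen after the values were seen, and no test was made. The pattern held in 14.3% of the 63 early-peak genes, 1.68% of all tested probe sets and 1 of 69 plastid genes. Of the 24 early-peak genes that were higher at 8 than at 3.5 HAP 8 had it, against 1 of the 30 that did not pass and 0 of the 9 that were lower. The 9 genes had a median log2 difference from unpollinated pistils of 0.77 at 0.5 HAP, -0.23 at 3.5 HAP and 0.78 at 8 HAP. They include all 3 pseudogenes among the early-peak genes. Whether these 9 probe sets each measure only the gene they name was not tested.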
